A study of Mus musculus with 3 samples.

Results

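The genes described here take up fatty acids, activate them, carry them into mitochondria and oxidise them there or in peroxisomes, and include the nuclear regulators best known for controlling this programme. There were 35 of them, picked by gene name from a list of the pathway, with earlier results of these data known. They are 35 of the 55536 annotated genes in the data, all of them among the 22028 protein-coding genes. RNA selected for polyA tails was sequenced from regulatory T cells, CD4 T cells that express the factor Foxp3 and hold other immune cells in check. The cells are labelled inflammation-experienced, and came from 1 adult male mouse donor aged 16 weeks of the strain Foxp3GFP-DTRCD4CreERT2R26tdTomato. That strain name lists a Foxp3 allele with GFP and the diphtheria toxin receptor, a CreERT2 recombinase under CD4, which tamoxifen activates, and a tdTomato reporter at R26. The sources used here do not give how the cells were exposed to inflammation or sorted. All 3 libraries belong to 1 group and are technical replicates 1, 2 and 3 of 1 biological replicate, so no second condition was compared, each SD is over these libraries (n = 3 throughout), and neither SD nor p measures variation between animals.

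Long-chain fatty acids enter cells through membrane proteins, travel on cytosolic binding proteins, and are activated to acyl-CoA by synthetases. The carnitine shuttle moves the acyl group across the mitochondrial membranes, and its first enzyme, carnitine palmitoyltransferase 1, is the step that malonyl-CoA inhibits. Inside, each turn of beta-oxidation shortens the chain through a dehydrogenation, a hydration, a second dehydrogenation and a thiolysis, and electrons of the first step pass through the electron transfer flavoprotein to the respiratory chain. Regulatory T cells are known for relying on fatty acid oxidation more than effector T cells do in culture.

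The libraries held 20942875, 18402479 and 17494966 expected counts on annotated genes, estimated counts in which reads that fit several transcripts are shared out. Levels are in TPM, a unit of abundance scaled for transcript length and library depth. The floor for a gene without reads is 3 counts, which on 1 kilobase of transcript came to between 0.230 and 0.251 TPM, and covers counting error only. All 7 T cell markers and all 5 regulatory T cell markers were found in each library, with Foxp3 at 77.6, 86.2 and 59.2 TPM. Macrophage markers summed to 45.0, 45.3 and 33.3 TPM, B cell markers to 67.2, 71.8 and 77.8 TPM, and erythroid markers, mostly globins, to 1390, 1097 and 1751 TPM. Muscle and hepatocyte markers summed to 0.23 TPM or less in each library. In these bulk samples, fewer cells of a type and less RNA per cell cannot be told apart.

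The pathway was expressed broadly, with exceptions at its entry and in its regulators. In each library, 29 of the 35 genes passed 1 TPM, 26 passed 10 TPM and 5 passed 100 TPM, namely Hadhb, Acsl5, Acaa2, Etfb and Acadvl. Another 4 genes, Cd36, Cpt1b, Ppara and Ppargc1a, stayed under 1 TPM in every library. The median level of the 35 genes was 38.6 ± 3.03 TPM (SD), beside 0.85 ± 0.08 TPM for all protein-coding genes and 25.6 ± 3.29 TPM for the 10436 protein-coding genes at 1 TPM or more in each library. Together the 35 genes summed to 1713 ± 115 TPM. Ordered by mean level, 24 of the 34 neighbouring pairs had overlapping library values, and 10 were apart. The pairs that were apart stood below Hadhb, below Acadvl, below Hadha, below Acadm, below Slc25a20, and at 5 places from Ppargc1b downwards. Only neighbours by mean were compared, so these steps need not part all genes above from all genes below. Cpt1a, ranked below Acadm, exceeded it in library 2, at 57.6 against 49.2 TPM.

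**Figure D1:**
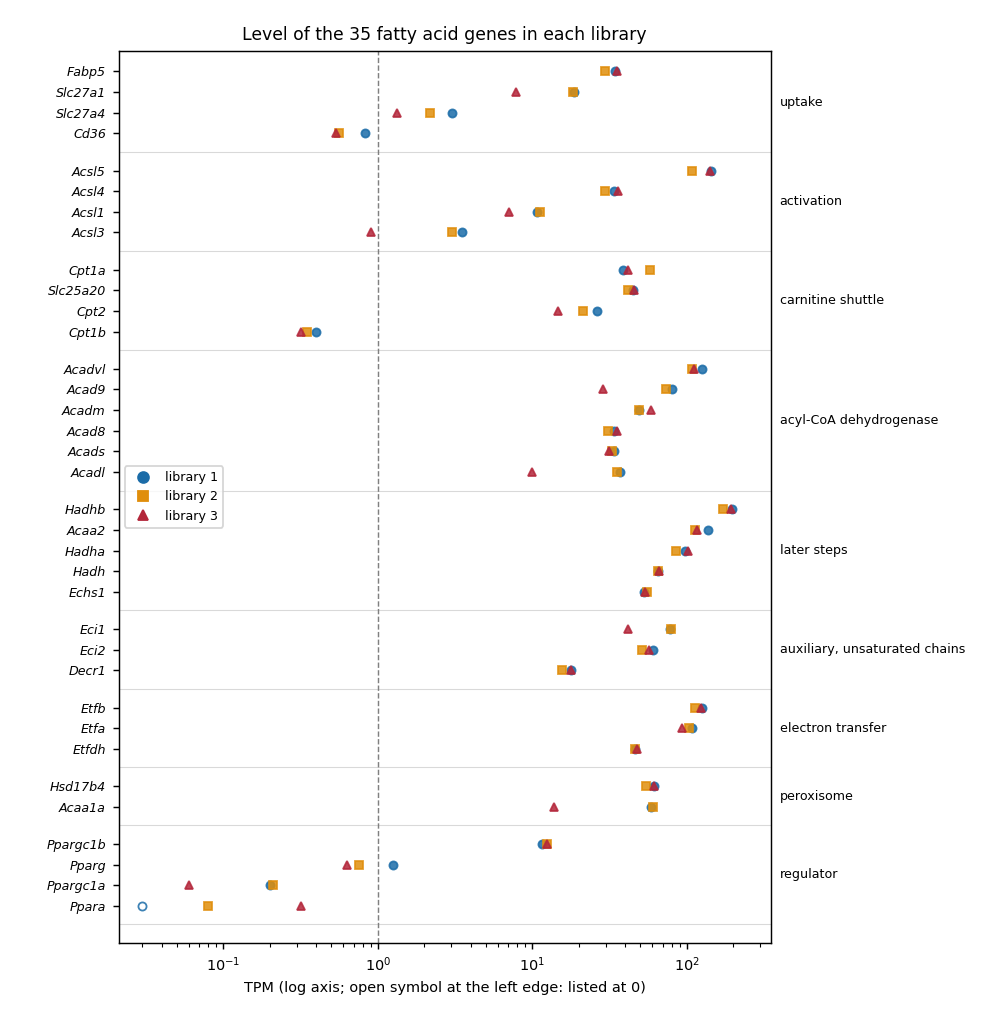
Level of each of the 35 genes in each library, as TPM on a log axis, grouped by role. Points are single libraries, the dashed line marks 1 TPM, and an open symbol at the left edge stands for a gene listed at 0. Most enzymes sit between 10 and 200 TPM with the 3 libraries close together, while library 3 lies to the left for Acaa1a, Acadl, Acsl3, Acad9, Slc27a1, Slc27a4 and Eci1.

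Whether the libraries differed beyond counting error was asked of every gene whose counts averaged at least 10, by a chi-square test against Poisson sampling with Benjamini-Hochberg adjustment over all 14877 genes tested, the source of every adjusted p here. Differences at an adjusted p under 0.05 were found for 9501 genes, 63.9% of those tested, and for 21 of the 33 fatty acid genes that could be tested, 63.6%. Ppara and Ppargc1a had too few counts to be tested. The share among the fatty acid genes was thus near that of all genes. With libraries scaled by total counts alone, 28 of the 33 differed (84.8%), beside 67.7% of all genes tested. Fabp5, Slc25a20, Hadh, Echs1, Decr1, Etfb, Etfdh and Ppargc1b then passed the threshold and Etfa did not. In a second gene table, deposited as whole-number counts from genome alignments, the test called 16 of 31 (51.6%), beside 56.7% of all genes, and Acadvl, Hadhb, Acaa2, Eci2 and Etfa did not pass there. A level under 0.5 times the mean of libraries 1 and 2 in library 3, with an adjusted p under the threshold, was found for 13.4% of all genes tested and for 5 of the 33 fatty acid genes. A level over 2 times that mean was found for 1.92% of all genes tested and for 0 of the 33.

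Among the uptake genes, the binding protein and the transport protein FATP1 were present and the scavenger receptor was nearly absent. Fabp5, which binds fatty acids in the cytosol of immune and skin cells, stood at 34.4, 29.5 and 35.4 TPM, a mean of 33.1 ± 3.19 TPM, and its libraries did not pass the test (adjusted p = 0.0826). Cd36, a membrane receptor that takes up long-chain fatty acids in muscle, fat and macrophages, stood at 0.83, 0.56 and 0.54 TPM from 23, 13 and 21 counts. The log2 ratio of Fabp5 to Cd36, each as TPM + 1, was 4.37 ± 0.16 and had the same sign in all 3 libraries.

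Slc27a1, the gene of FATP1, was measured at 18.6, 18.3 and 7.85 TPM. Libraries 1 and 2 were alike and library 3 was low, at 0.470 times their mean (adjusted p = 2.45e-25). Slc27a4, the gene of FATP4, was measured at 3.03, 2.17 and 1.34 TPM, with no library overlapping the values of Slc27a1 (log2 ratio of Slc27a1 to Slc27a4 2.27 ± 0.34). Of 12 other transporters and binding proteins, Mfsd2a, a lysolipid transporter, alone reached 1 TPM in each library, at 2.54, 2.93 and 1.43 TPM. Fabp1, Fabp2, Fabp6 and Fabp9, the binding proteins of liver, gut and testis, had no count in any library, and Fabp4, the binding protein of adipocytes and macrophages, stood at 0.31, 0.22 and 0.44 TPM. Fabp5 was thus the one listed binding protein gene above 1 TPM.

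The 4 long-chain acyl-CoA synthetase genes among the 35 stood at very unequal levels, and Acsl5 was the most abundant. Acsl5, which sits on mitochondria and the endoplasmic reticulum, stood at 144.8, 108.6 and 142.1 TPM, a mean of 132 ± 20.2 TPM, and ranked 1258 of the 22028 protein-coding genes. Acsl4, which prefers arachidonic acid, stood at 33.7, 29.4 and 36.1 TPM. Both were lowest in library 2, and both differed between libraries (adjusted p = 1.06e-07 for Acsl5 and 5.67e-10 for Acsl4). Acsl1, the main synthetase feeding oxidation in heart and fat, was measured at 10.8, 11.2 and 7.03 TPM and was lowest in library 3 (adjusted p = 7.49e-12). Acsl3, which works at lipid droplets, was measured at 3.52, 3.01 and 0.91 TPM, with library 3 again the low one, at 0.356 times the mean of the others. Acsl5 exceeded Acsl4 with a log2 ratio of TPM + 1 for Acsl4 to Acsl5 of -1.96 ± 0.11, and the same ratio for Acsl1 to Acsl5 was -3.65 ± 0.50. Of 17 other synthetase and thioesterase genes, 10 were detected in each library. The thioesterases Acot7, Acot9 and Acot13 led them at 88.3 ± 12.2, 78.9 ± 12.5 and 72.2 ± 2.03 TPM, and Acsm1, a medium-chain synthetase gene, had no count. Of the 10 genes of that list that were tested, 8 differed between libraries, beside 63.9% of all genes tested.

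The carnitine shuttle was complete, with the liver form of its first enzyme in place of the muscle form. Cpt1a, the liver form of carnitine palmitoyltransferase 1, was measured at 38.9, 57.6 and 41.9 TPM. Library 2 was the high one (adjusted p = 2.76e-39), and without it the libraries still differed, with an adjusted p of 4.93e-03. Cpt1b, the muscle form, stood at 0.40, 0.35 and 0.32 TPM (11, 12 and 11 counts), so its libraries were alike at a low level. For this gene, 3 counts came to 0.109, 0.0875 and 0.0873 TPM. The log2 ratio of Cpt1a to Cpt1b, each as TPM + 1, was 4.83, 5.44 and 5.02, a mean of 5.10 ± 0.31. Over 93.0% of the 50-base stretches of the main Cpt1b transcript also occur in Gm44502. That gene was listed at 0 TPM in all 3 libraries, so these levels show none of the shared reads assigned to it. Cpt1c, the brain form, stood at 0.59, 0.48 and 0.82 TPM.

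Slc25a20, the carrier that exchanges acylcarnitine for carnitine across the inner membrane, was steady at 45.2, 41.5 and 45.8 TPM. Cpt2, which turns acylcarnitine back into acyl-CoA in the matrix, stood at 26.3, 21.4 and 14.6 TPM and was lowest in library 3, at 0.594 times the mean of the others (adjusted p = 9.91e-17). The difference between Cpt1a and Cpt2 (log2 ratio 1.13 ± 0.51) rested on single libraries, since without library 2 or without library 3 it was 1.00 ± 0.64 or 0.97 ± 0.60 and no longer met the rule for pairs. Of 9 other carnitine genes, 6 were detected in each library, led by Crot, the peroxisomal carnitine octanoyltransferase, at 60.8 ± 5.05 TPM, Aldh9a1, a dehydrogenase of carnitine synthesis, at 59.4 ± 6.93 TPM, and Slc22a5, the carnitine importer, at 25.4 ± 4.23 TPM. Bbox1, which makes the last step of carnitine synthesis in liver and kidney, had no count. Of the 8 tested genes of that list, 7 differed between libraries, beside 63.9% of all genes tested.

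The acyl-CoA dehydrogenases, which start each turn of the cycle, were all present, and the very-long-chain enzyme led. Acadvl stood at 124.9, 109.1 and 112.2 TPM. The medium-chain enzyme gene Acadm stood at 49.02, 49.2 and 58.6 TPM, and the short-chain enzyme gene Acads at 34.0, 33.0 and 31.5 TPM. Library 3 was the high one for Acadm (1.23 times the mean of the others, adjusted p = 2.99e-09), and the libraries of Acads did not pass the test (adjusted p = 0.689). Acadl, the long-chain enzyme, was measured at 37.2, 35.5 and 10.02 TPM, with libraries 1 and 2 alike and library 3 at 0.280 times their mean (adjusted p = 3.38e-79). Its order against the other chain-length enzymes therefore depended on the library. Acadl lay above Acads in libraries 1 and 2 and below it in library 3, and its log2 ratio of TPM + 1 to Acadvl and Acadm moved with library 3 (Acadvl to Acadl 1.72, 1.59 and 3.36).

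Acad9, which acts mainly in assembly of respiratory complex I, was measured at 80.1, 73.2 and 28.8 TPM. Here too library 3 was the low one, at 0.392 times the mean of the others (adjusted p = 1.11e-88). Acad8, the isobutyryl-CoA dehydrogenase of valine breakdown, stood at 33.6, 31.0 and 35.5 TPM and differed narrowly between libraries (adjusted p = 0.0195, and 0.0551 with no count filter). All 6 other dehydrogenase genes on the list were detected. Among them, Ivd at 72.2 ± 6.90 TPM, Acadsb at 61.4 ± 9.63 TPM and Gcdh at 34.2 ± 3.13 TPM serve amino acid breakdown. Of the 6, 4 differed between libraries, beside 63.9% of all genes tested.

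The later steps held the most transcript in sum of all roles, 525 ± 29.8 TPM over 5 genes. Hadhb, the thiolase subunit of the mitochondrial trifunctional protein, stood at 196.2, 172.7 and 195.1 TPM, a mean of 188 ± 13.3 TPM and the highest of the 35 genes. Hadha, the subunit with the hydratase and dehydrogenase activities, stood at 98.4, 85.4 and 102.4 TPM. Both subunits were lowest in library 2 and differed between libraries (adjusted p = 9.73e-05 for Hadhb and 3.61e-07 for Hadha), though not without library 2 (0.235 and 0.332). For Hadhb the adjusted p was 0.133 in the second gene table, which held only 185, 177 and 196 counts of it. Library 3 stood there at 1.21 times the mean of the others, against 1.06 times in the main fit. With a trend of each library on GC content removed, the adjusted p of Hadhb was 0.0539. Their log2 ratio of TPM + 1, Hadha to Hadhb, held within a narrow range, at -0.99, -1.01 and -0.92.

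Hadha and Hadhb lie head to head on mouse chromosome 5, Hadha from 30118304 to 30155162 on the minus strand and Hadhb from 30155248 to 30184593 on the plus strand (mm10). Of the 300 bases of the RefSeq promoter window of Hadhb, 228 also belong to the window of Hadha. The 85 bases that separate both gene starts are shown because they lie upstream of both, and hold 9 CG pairs, in capitals, with a GC content of 69.4% (chr5:30155163-30155247, plus strand, GRCm38.p6).
Hadha-Hadhb interval: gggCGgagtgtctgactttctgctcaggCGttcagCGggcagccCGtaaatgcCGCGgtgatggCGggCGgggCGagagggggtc

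Hadh, the short-chain hydroxyacyl-CoA dehydrogenase, stood at 64.9, 65.3 and 65.9 TPM, and Echs1, the short-chain enoyl-CoA hydratase, at 53.1, 55.7 and 54.1 TPM. Relative to their means these were among the steadiest of the 35 genes, and neither passed the test (adjusted p = 0.342 and 0.0523). That outcome turned with the scaling, since with total counts alone the adjusted p was 5.74e-03 for Hadh and 1.26e-03 for Echs1, and both also passed with the GC trend removed. Acaa2, the mitochondrial thiolase of medium chains on chromosome 18, stood at 136.9, 113.0 and 117.1 TPM and was highest in library 1 (adjusted p = 1.47e-05). The call was lost in the second gene table (0.490) and without library 1 (0.650).

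Among the auxiliary enzymes, which bring unsaturated chains into the cycle, the isomerase genes Eci1 and Eci2 exchanged their order between libraries. Eci1 was measured at 78.2, 78.8 and 42.1 TPM, with library 3 at 0.525 times the mean of the others (adjusted p = 5.42e-32). Eci2 was measured at 60.8, 51.3 and 57.0 TPM and passed the test narrowly (adjusted p = 0.0415, and 0.0828 with no count filter). Eci1 lay above Eci2 in libraries 1 and 2 and below it in library 3. Decr1, the 2,4-dienoyl-CoA reductase, stood lower, at 17.8, 15.6 and 17.8 TPM.

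The electron transfer genes followed the dehydrogenases at high level. The flavoprotein subunits Etfa and Etfb were measured at 107.7, 103.3 and 93.8 TPM and at 126.5, 113.7 and 123.1 TPM. Their library values did not overlap, yet the log2 ratio of TPM + 1 for Etfa to Etfb was small, at -0.25 ± 0.13. Etfdh, the membrane oxidoreductase that takes electrons from the flavoprotein to ubiquinone, stood at 46.1, 46.0 and 47.8 TPM. Etfa differed between libraries (adjusted p = 1.28e-03), with library 3 the lowest, but not with total counts alone (0.168), in the second gene table (0.712) or without library 1 (0.0516). With total counts alone Etfb and Etfdh passed instead (7.46e-03 and 0.0192), so which of the 3 genes differed depended on the scaling.

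Of the peroxisomal genes, the thiolase gene varied most of all tested genes of the 35 relative to its mean, and the multifunctional enzyme gene varied less. Acaa1a was measured at 59.2, 60.5 and 13.8 TPM, with library 3 at 0.244 times the mean of the others (adjusted p = 7.73e-144). Hsd17b4, the multifunctional enzyme of very-long-chain and branched substrates on chromosome 18, stood at 61.8, 54.6 and 61.1 TPM. It too differed between libraries (adjusted p = 6.85e-05), though not without library 2 (0.395). Of 17 further genes of peroxisomal oxidation, 13 were detected in each library. Between libraries, 10 of the 15 tested differed, beside 63.9% of all genes tested. Scp2, a sterol carrier with a thiolase domain, Ech1, a dienoyl-CoA isomerase, and Phyh, which starts alpha-oxidation, led them at 270.6 ± 13.7, 180.6 ± 11.9 and 86.1 ± 7.66 TPM. Ehhadh, the bifunctional enzyme of straight chains, stood at 7.88, 8.86 and 10.9 TPM.

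Of the 4 regulators, the coactivator gene Ppargc1b was expressed and the others were at or under about 1 TPM. Ppargc1b, on chromosome 18, stood at 11.6, 12.6 and 12.4 TPM with no difference past the threshold (adjusted p = 0.0852). Ppargc1a, the coactivator of brown fat and muscle, stood at 0.20, 0.21 and 0.06 TPM (9, 8 and 4 counts), so its log2 ratio of TPM + 1 to Ppargc1b was -3.51 ± 0.14. Ppara, the receptor that drives oxidation genes in liver, had 0, 2 and 2 counts, and the count of 0 in library 1 allows up to 0.158 TPM. Pparg, the receptor of adipocytes, macrophages and tissue regulatory T cells, stood at 1.25, 0.76 and 0.63 TPM (29, 14 and 13 counts). Library 1 was the high one without passing the test (adjusted p = 0.0684). Ppard, the third receptor, which is not among the 35, stood at 1.71, 3.45 and 1.96 TPM, and exceeded Ppara with a log2 ratio of TPM + 1 of 1.55 ± 0.45.

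Cd36 and Pparg are also expressed by macrophages and adipocytes. All 5 macrophage markers were detected, from Csf1r at 15.7, 14.9 and 12.03 TPM to Mertk at 1.82, 1.65 and 1.12 TPM. Of the 4 adipocyte markers, Cfd was at 0, Lep and Plin1 had means of 0.017 and 0.067 TPM, and Adipoq stood at 0.94, 1.34 and 1.14 TPM. The part of such cells in the low values of Cd36 and Pparg was not tested.

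Among 21 other regulators, 16 were detected in each library and 10 of the 17 tested differed, beside 63.9% of all genes tested. Tfam, the mitochondrial transcription factor, stood at 100.1 ± 6.53 TPM, the corepressor Ncor1 at 89.1 ± 11.9 TPM and Nrf1, a factor of nuclear genes for mitochondria, at 73.3 ± 4.31 TPM. Esrrb had no count. Acaca, whose product makes the malonyl-CoA that inhibits carnitine palmitoyltransferase 1, stood at 8.04, 9.13 and 6.50 TPM, and its mitochondrial counterpart Acacb at 0.36, 0.77 and 0.51 TPM. Cpt1a exceeded Acaca with a log2 ratio of TPM + 1 of 2.40 ± 0.22, whereas Cpt1a and Fasn, the fatty acid synthase gene, had a ratio of 0.06 ± 0.23 whose sign varied.

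Of 12 genes known as targets of PPAR factors, 4 were detected in each library and 8 stayed under 1 TPM in every library. The 3 highest were Ucp2, a mitochondrial carrier, at 1400 ± 26.5 TPM, Txnip, a thioredoxin inhibitor, at 995.4 ± 184 TPM and Plin2, a lipid droplet coat protein, at 22.2 ± 0.75 TPM. Cyp4a10, Fgf21 and Vnn1, which respond to PPAR alpha in liver, had no count, and Pdk4 stood at 0.02, 0.02 and 0.05 TPM.

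In promoter windows of 250 bases before to 50 after the gene start (RefSeq, GRCm38.p6), 28 of the 35 genes matched, with 33 windows. The letters AGGTCA, the core that nuclear receptors such as PPAR factors bind, searched on both strands, occurred in windows of Acadm, Acadvl, Cd36, Cpt1a, Echs1 and Pparg, and in 16.3% of all 32851 windows. A direct repeat of these letters with 1 base between, the element of PPAR factors, occurred in windows of 0 of the 28 genes and in 0.0396% of all windows. A match is a description of letters only.

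Library 3 was low for 5 of the genes, and 4 of these 5 hold a coding stretch of at least 70% GC, while the fifth, Acsl3, reaches 55%. The genes under 0.5 times the mean of the other libraries were Acaa1a, Acadl, Acsl3, Acad9 and Slc27a1, with Slc27a4 (0.523) and Eci1 (0.525) just outside that limit. For the 29 of the 35 genes that averaged at least 100 counts, a filter that leaves Acsl3 out, the deviation of library 3 was set beside the GC content of the richest 100 bases in the coding sequence of the gene's most abundant coding transcript by TPM. Spearman's rho was -0.71 over these 29 genes and -0.43 over 9293 protein-coding genes, given as a description since the genes share the same 3 libraries. For the richest 200 bases of the whole transcript the order turned, with -0.33 over the 29 genes and -0.54 over all. For the GC content of the whole transcript the values were -0.55 and -0.31. Of the 7 among the 29 genes at 70% or more, 4 lay under 0.5 times the others, beside 887 of 2688 protein-coding genes (33.0%). Under 70%, the counts were 0 of 22 and 532 of 6605 (8.05%). Eci1 (76%) and Cpt2 (70%) stood at 0.525 and 0.594 times the mean of the others, and Ppargc1b (70%) at 0.993. A GC-rich stretch thus did not always go with a low value in library 3. The cause was not tested.

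**Figure D2:**
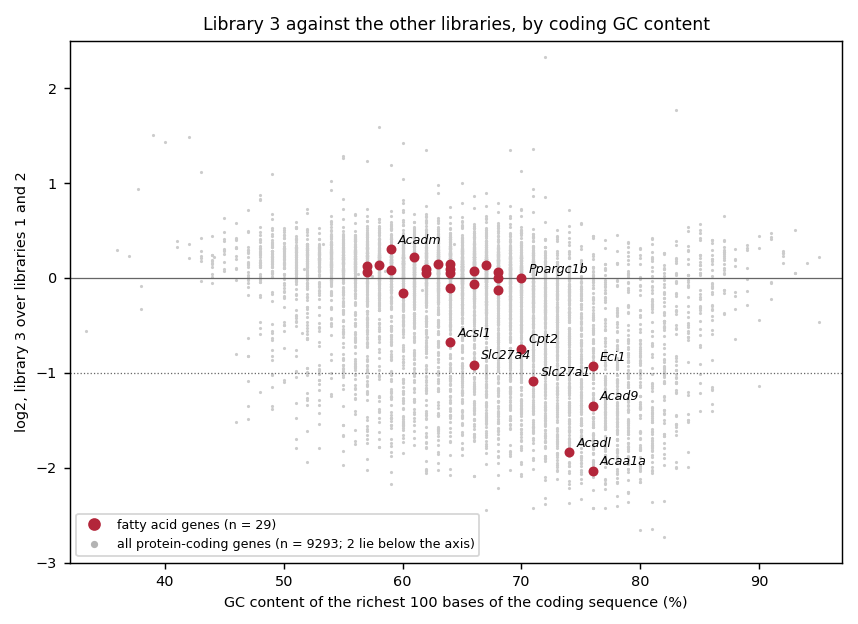
Deviation of library 3 from libraries 1 and 2 (log2, vertical axis) against the GC content of the richest 100 coding bases (percent) for 29 fatty acid genes averaging at least 100 counts in red and 9293 protein-coding genes in grey. The dotted line marks 0.5 times the mean of the other libraries. Acaa1a, Acadl, Acad9 and Slc27a1 lie below it, all at 71% GC or more.

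These stretches are shown for the 3 lowest and the 3 highest of these 29 genes in library 3 against the others, with CG pairs in capitals. Acsl3 and Cd36, with fewer counts, are therefore not among them. They come from GENCODE M21 transcripts, and positions count from the first base of the transcript. The first 3 belong to Acaa1a (76% GC, bases 240 to 339 of Acaa1a-201), Acadl (74%, bases 31 to 130 of Acadl-201) and Acad9 (76%, bases 55 to 154 of Acad9-205), and hold 12, 14 and 15 CG pairs. The other 3 belong to Hadha (64%, bases 2266 to 2365 of Hadha-205), Acsl4 (61%, bases 1744 to 1843 of Acsl4-201) and Acadm (59%, bases 414 to 513 of Acadm-201), and hold 3, 5 and 8 CG pairs. Acad9-205, of 552 bases, held 5.29% of the expected counts of Acad9, against 41.0% for the coding Acad9-201. Hadha-205 held 13.5% of those of Hadha, so both stretches come from transcripts with few of the gene's counts.
Acaa1a: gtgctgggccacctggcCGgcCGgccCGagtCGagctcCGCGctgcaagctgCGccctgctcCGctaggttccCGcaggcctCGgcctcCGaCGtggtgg
Acadl: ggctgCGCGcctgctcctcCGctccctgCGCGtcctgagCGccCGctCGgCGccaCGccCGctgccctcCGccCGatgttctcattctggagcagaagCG
Acad9: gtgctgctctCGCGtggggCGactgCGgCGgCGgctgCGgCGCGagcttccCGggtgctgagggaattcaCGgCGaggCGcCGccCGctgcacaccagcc
Hadha: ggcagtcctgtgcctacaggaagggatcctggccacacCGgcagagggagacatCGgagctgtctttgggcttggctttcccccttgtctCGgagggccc
Acsl4: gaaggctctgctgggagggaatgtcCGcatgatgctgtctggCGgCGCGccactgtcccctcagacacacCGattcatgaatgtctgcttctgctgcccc
Acadm: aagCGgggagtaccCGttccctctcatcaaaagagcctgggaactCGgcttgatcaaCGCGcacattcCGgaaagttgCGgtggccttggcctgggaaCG

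Once the trend of each library with local GC content had been removed, an alternative chosen after seeing the data, 3 of the 33 tested genes (9.09%) lay under 0.5 times the mean of the others, beside 686 of 11768 genes tested (5.83%). The trend was on the richest 200 bases of the transcript, a different measure from the coding one above. Acadl, which reaches 62% by that measure, stayed at 0.263 times that mean, and Acaa1a moved to 0.431 and Acad9 to 0.430. Slc27a1 came to 0.533 and Acsl3, which reaches 76.5% by the measure on the transcript, to 0.618. Some genes moved away from equal levels instead. Decr1 went from 1.10 to 1.73 times the mean of the others, and its adjusted p from 0.237 to 7.82e-25. Acadm went from 1.23 to 1.59 times and Acsl4 from 1.17 to 1.44 times.

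At the transcript level, most genes were read mainly through 1 coding transcript, and Hadha was the clearest exception. For the 30 genes with a mean of at least 1 TPM, the transcript with the largest share took a median of 79.9 ± 0.58% of the gene's TPM, and in 12 genes it took at least 90%. Slc27a4 and Acadl had 100% of their TPM on 1 coding transcript in every library. In 3 genes the transcript with the largest share does not code for protein. Shares of overlapping transcripts are model estimates made from short reads.

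In Hadha, the transcript Hadha-201, annotated as a processed transcript of 2552 bases, took 53.0, 53.3 and 51.6% of TPM, and 73.2% of expected counts. Hadha-205, its coding transcript of 4017 bases, took 7.32, 5.37 and 5.70% of TPM and 13.5 ± 2.08% of expected counts. The level of 95.4 ± 8.89 TPM for Hadha therefore rested mostly on transcripts annotated as non-coding. By contrast, the coding transcripts of its partner Hadhb held 92.8, 96.0 and 91.7% of TPM.

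Acad9 and Acad8 also had low coding shares. The retained-intron transcript Acad9-208 of 740 bases took 20.7 ± 4.98% of the TPM of Acad9, and coding transcripts together took 33.3, 31.8 and 24.2%, or 46.2 ± 4.38% of expected counts. The retained-intron transcript Acad8-207 of 785 bases took 33.6 ± 7.23% of the TPM of Acad8, and coding transcripts took 34.6, 29.5 and 31.8%, or 63.2 ± 2.39% of expected counts. In both genes a coding transcript led by expected counts, Acad9-201 and Acad8-201, so their order depended on whether length was taken into account. In Slc27a1 the coding share was 69.2, 58.7 and 50.6%, highest in library 1, and its retained-intron transcript Slc27a1-205 took 1.74, 14.7 and 38.2%, highest in library 3.

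**Figure D3:**
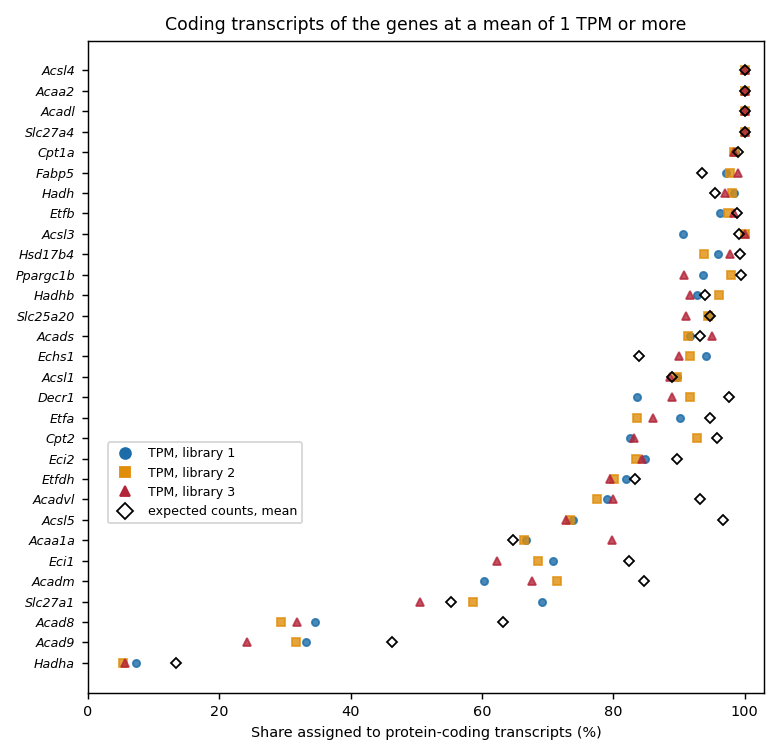
Share of each gene's TPM on protein-coding transcripts in each library (percent, points) and mean share of expected counts (open diamonds), for the 30 genes at a mean of at least 1 TPM. Hadha, Acad9 and Acad8 sit at the bottom, with under 35% of TPM on coding transcripts in each library.

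The second gene table, made with an older annotation, gave much lower counts for a few of the genes. For Hadhb it held 185, 177 and 196 counts, against 4978, 4175 and 4579 expected counts in the first table, or 4.06% of them. Of 9227 protein-coding genes, 3.87% had a lower share, the median was 45.5%, and the median of the fatty acid genes at 1 TPM or more was 57.1%. Of the 50-base stretches of the main Hadhb transcript, 61.9% also occur in Gm13910, a processed pseudogene of chromosome 2 (108948806 to 108950233, mm10), which stood at 1.41, 5.23 and 5.63 TPM. The level of Hadhb, and its order against Hadha, thus differed between both gene tables. Whether reads that fit both places account for that was not tested. In counts of the second table, scaled for depth but not for length, the log2 ratio of Hadha to Hadhb was 2.82 ± 0.15, the opposite sign to the ratio in TPM.

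Fabp5 and Acaa1a were the next lowest. The second table held 24.9% of the expected counts of Fabp5, of whose stretches 21.1% occur elsewhere, mostly in the pseudogene Gm6166. It held 29.2% of the expected counts of Acaa1a, of whose stretches 34.0% occur in the related gene Acaa1b, a gene at 0.09, 0.00 and 0.09 TPM. Of the 35 genes, 21 had no stretch found in another gene and 9 had more than 5%. The low value of Acaa1a in library 3 was present in both tables, at 0.244 and 0.276 times the mean of the other libraries.

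**Figure D4:**
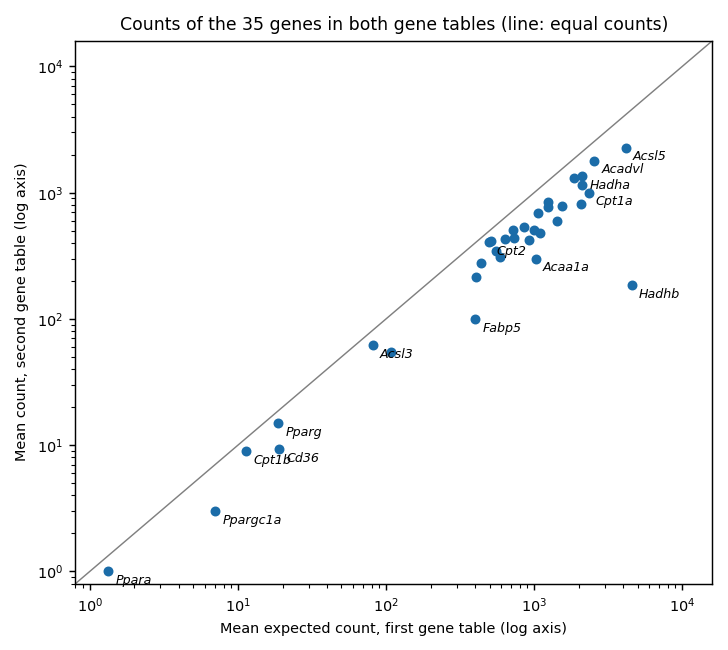
Mean count over the 3 libraries in the second gene table against mean expected count in the first, for the 35 genes, on log axes with the line of equal counts. Most genes lie a similar distance under the line, and Hadhb lies far below it, at 4.06% of its expected counts.

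Exons of 12 of the 35 genes overlap exons of another gene, and in 7 the other gene stood at 1 TPM or more on average. The sources used here do not state whether counting used strand, so reads of pairs on opposite strands cannot be told apart with certainty. The widest of these overlaps was that of Acadvl, of whose exon bases 42.9% are shared with Dvl2 on the opposite strand, a gene at 21.1, 20.1 and 5.97 TPM. For Acsl5 the overlap with Zdhhc6 covered 8.31% of exon bases, and for Acaa1a the overlap with Myd88 covered 6.57%. The others were Echs1 with Paox, Eci2 with Gm16984, Etfdh with 4930579G24Rik and Acad9 with Gm43079. Acad9 and Gm43079 lie on the same strand, so strand would not separate their reads. Of the 50-base stretches of the leading Acad9 transcript by TPM, 43.7% also occur in Gm43079, which stood at 7.84 ± 3.92 TPM.

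Ratios within libraries gave a view that does not depend on the scaling of libraries. Of 32 pairs of related genes, 20 met the rule for a difference, which asks for 1 sign in all 3 libraries and a mean log2 ratio above 1 and above 2 SD. An exact permutation test over 3 libraries cannot go below p = 0.25 (two-sided), so no p is given for pairs. With the pseudocount of 1, the widest ratios were those of Acsl3 to Acsl5 (-5.34 ± 0.78), Cpt1a to Cpt1b and Fabp5 to Cd36. That order depended on the pseudocount. At 0.1, Cpt1a to Cpt1b was widest (6.64 ± 0.36), followed by Acsl3 to Acsl5 (-5.86 ± 1.11) and Ppargc1a to Ppargc1b (-5.64 ± 0.56). In TPM, pairs of subunits or successive enzymes stayed near 1 log2 unit or less, as in Hadha and Hadhb, Etfa and Etfb, and Hadh and Hadha (-0.53 ± 0.13). Of such pairs, Cpt1a to Cpt2 (1.13 ± 0.51), Slc25a20 to Cpt2 (1.09 ± 0.43) and Etfa to Etfdh (1.10 ± 0.13) met the rule. In counts of the second gene table, Hadha to Hadhb was 2.82 ± 0.15, of opposite sign. Acadm and Acadl (1.09 ± 1.16), Acaa2 and Acaa1a (1.69 ± 1.14) and Acadvl and Acad9 (1.04 ± 0.77) did not meet the rule, and library 3 lay far from the others in each. Acadvl and Acadl met it (2.22 ± 0.99), but not without library 1 (2.48 ± 1.25).

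**Figure D5:**
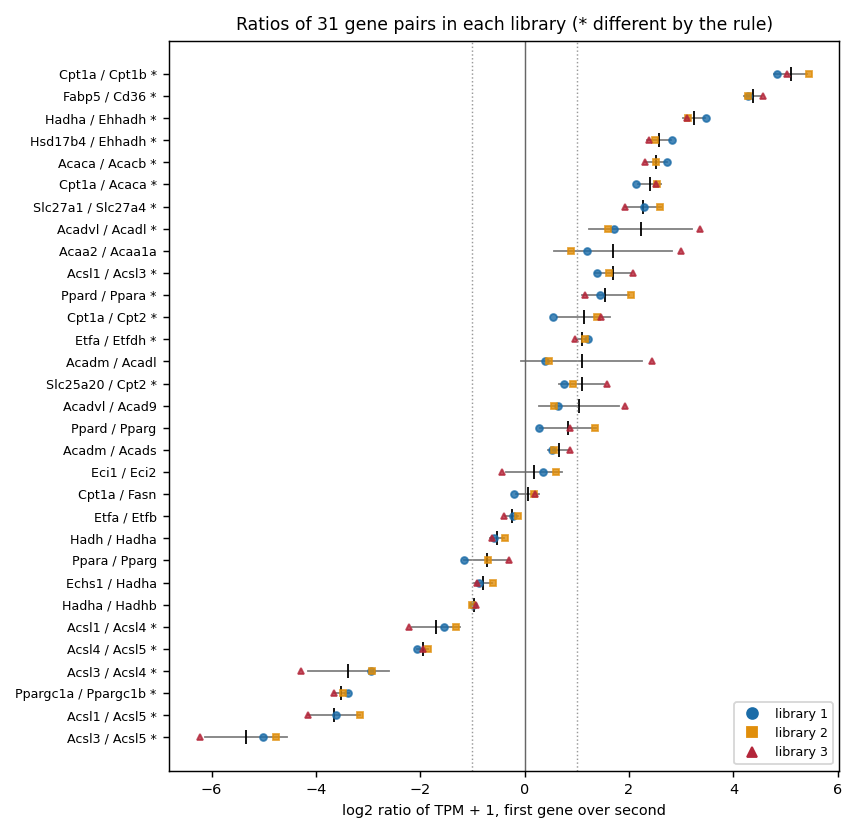
log2 ratio of TPM + 1 for 31 of the 32 gene pairs in each library, with the mean (short vertical line) and SD (horizontal line) over 3 libraries. Dotted lines mark a ratio of 1 log2 unit in either direction and asterisks the 19 pairs shown that met the rule. The ratio of Cpt1a to Cpt1b lies highest, at 5.10, and that of Acsl3 to Acsl5 lowest, at -5.34.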

How the data were processed

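Levels are TPM as deposited. The authors deposited expected counts, TPM and FPKM per gene and per transcript of each library, and each transcript's percent of the TPM of its gene, per the file headers, whose column names are those RSEM writes. These come from transcriptome alignments to mm10 with GENCODE M21, per the deposited text. A second deposited gene table holds whole-number counts for GENCODE M4. Fragments were sheared on a Covaris instrument, per the labels. Which aligner and counters were used, and in which version, is not given in the sources used. tRNA and spike-in entries were left out (26248 and 97 of 81881 entries).

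Expected counts were rounded and scaled with TMM factors (edgeR 4.0.16, R 4.3.3). With 1 group there is no contrast for a quasi-likelihood test. Genes averaging at least 10 counts were therefore tested by Pearson's chi-square with 2 degrees of freedom (scipy 1.17.1), adjusted p threshold 0.05. The code was checked on counts simulated from the same Poisson model, which cannot show whether these data follow that model. Pair ratios used a pseudocount of 1, which understates ratios of low genes. Alternatives were DESeq2 1.42.0 size factors, total counts, other filters, limits and pseudocounts, FPKM, the second table, and leaving out each library. Those on GC content (a lowess trend, fraction 0.3, on the richest 200 bases) and on a scale of nuclear protein-coding genes alone were chosen after seeing the data. The 35 genes, the other lists, the pairs and the GC measure were chosen with earlier results of these data known. Named genes are all 35, the 3 highest of each other list, list genes with no count, pair genes and cell type markers; Fabp4, Cpt1c, Pdk4 and the genes sharing sequence or exons were chosen after their values were seen. Some genes that this rule takes are not reported here.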

Additional observations from a re-analysis of the deposited data

How the results depend on the processing

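The count of fatty acid genes that differ between libraries was 21 of 33, and ran from 16 of 31 in the second table (51.6%, all genes 56.7%) to 28 of 33 with total counts alone (84.8%, all genes 67.7%, or 10065). It was 23 of 33 with the GC trend removed (69.7%, all genes 64.9%). Leaving out a library gave 12 to 17. It was 17 without library 1 (51.5%, all genes 51.4%) and 14 without library 2 (42.4%, all genes 53.9%). Without library 3 it was 12 (36.4%, all genes 30.1%). Slc27a1, Acsl1, Acsl3, Cpt2, Acadl, Acad8, Eci1, Etfa and Acaa1a were then no longer past the threshold. Without library 2, Acsl5, Acadvl, Acad8, Hadha, Hadhb, Eci2 and Hsd17b4 did not pass, and without library 1 Acadvl, Acaa2, Eci2 and Etfa did not. For all genes the count was 6222 in the second table, where fewer genes were tested, and 4478 to 8028 with a library left out, the lowest without library 3. With the GC trend removed, 3 of 33 fatty acid genes and 686 of 11768 genes in all lay under 0.5 times the others in library 3. The median level was 25.1 in FPKM and 47.1 as TPM over nuclear protein-coding genes, where only the scale changes. The median share of the leading transcript was 90.1% in expected counts. Pairs that met the rule numbered 19 to 25. The ratio of Etfa to Etfdh was -0.12 in the second table, which is not scaled for length, against 1.10. Detection ran from 28 to 32 genes. No paired analysis was possible because the libraries form 1 group. Low counts, about 10 for Cpt1b and under 10 for Ppargc1a and Ppara, limit what these libraries can show of the rarest genes.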

Other observations

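Genes that store, release or make fatty acids were present beside those that oxidise them. Of 11 genes of lipolysis and storage, 9 were detected in each library. Between libraries, 7 of the 10 tested differed, beside 63.9% of all genes tested. The lysosomal lipase gene Lipa led at 81.5, 78.7 and 105.5 TPM, highest in library 3. Pnpla2, the first lipase of droplet lipolysis, was steady at 81.6, 74.1 and 77.6 TPM, and Dgat1, which makes triglyceride, stood at 56.5, 50.9 and 45.7 TPM. Of 13 genes of fatty acid synthesis, 11 were detected and 9 of the 11 tested differed, beside 63.9% of all genes tested. Acly, which makes cytosolic acetyl-CoA, stood at 170.4 ± 15.3 TPM, and the elongases Elovl5 and Elovl1 at 166.4 ± 19.3 and 139.8 ± 12.8 TPM.

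Of 6 ketone body genes, 4 were detected and 3 of the 4 tested differed, beside 63.9% of all genes tested. Acat1, the thiolase, stood at 69.1 ± 1.93 TPM, and Oxct1, which starts ketone body use, at 59.4, 66.3 and 30.4 TPM with library 3 the low one.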
